A study of Mus musculus with 4 samples.

Results

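Kinesins are motor proteins that use ATP to move along microtubules or to take their ends apart. Mitotic kinesins build the spindle, hold chromosomes on it and divide the cell, and their genes are known to be switched on late in the cell cycle. Transport kinesins carry vesicles, mitochondria and other cargo and are expressed in dividing and resting cells alike. The members were chosen with earlier results of these data known. The rule used the symbol, taking gene rows named Kif with a number and at most 1 letter, or Kifc with a number. This gave 41 of 23284 gene rows, of which 13 were classed as mitotic, 17 as transport and 11 as other from their textbook roles. The other class took in ciliary, signalling, microtubule-end and little studied genes, among them Kif2a, which also acts in spindles, and Kifc5b. Enough counts for the test were present for 35 of the 41.

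The libraries came from mouse leukemic cells of strain C57BL/6 with high c-Kit, a receptor of immature blood cells, in a study of MLL leukemia. Of the 4 libraries, 2 lacked Msi2 (Msi2 -/-), a Musashi gene whose product binds RNA, and 2 carried Msi2 flox/flox alleles (called control here). The labels do not say how the gene was deleted, which MLL oncogene was used, the age or sex of the animals, or whether replicates came from separate animals. The p-values therefore measure only the spread between these libraries, which may not be the spread between animals. The submitters' library names open with a number that is shared within each group, and if it marks a batch, batch and genotype cannot be told apart. Gene counts totalled between 72273679 and 87564774 per library, so that 3 counts corresponded to between 0.0343 and 0.0412 CPM, the count scaled by library size. Msi2 was counted 2804 and 3562 times in the controls against 8 and 17 times in the Msi2 -/- libraries. Xist, the transcript of the inactive X chromosome, read 1454 and 654 CPM with Msi2 intact and 0.469 and 0.624 CPM without it, and 4 Y-linked genes summed to 41.1 and 184 CPM against 224 and 241 CPM. Both controls thus held Xist as well as Y-linked counts, in different proportions, which the labels do not explain. These levels differed between genotypes and between the 2 controls, so they go with every difference given here, and their part was not tested. Of the markers of the labelled cell, 7 of 8 had a row. Their summed level was 1300 to 1356 CPM in the controls and 1134 to 1247 CPM in the Msi2 -/- libraries. The lower sum went with Myb, at 740 and 690 CPM for the controls against 500 and 591 CPM without Msi2. Means of Hoxa9 and Flt3 were also lower without Msi2, and those of Kit, Hoxa10, Meis1 and Ptprc were higher. Kit itself read 50.4 and 51.9 CPM with Msi2 intact and 68.1 and 57.1 CPM without it. Of 5 T and NK cell genes, Cd3e, Cd3g and Cd2 had 0 counts in all 4 libraries, while Nkg7 reached 121 and 177 CPM with Msi2 intact and 22.8 and 147 CPM without it, and Lck lay between 6.50 and 9.95 CPM. Of 5 B cell genes, Ms4a1 and Pax5 had 0 counts throughout, while Cd79b was between 18.5 and 26.3 CPM. The 6 monocyte and macrophage genes with a row summed to 1206 to 1320 CPM in the controls and 1003 to 1801 CPM in the Msi2 -/- libraries, mostly from Ly6c2. Among them Cd68 had 18.7 and 28.3 CPM for the controls, against 30.3 and 73.1 CPM without Msi2. The 8 neutrophil genes summed to 1024 and 677 CPM for the controls, against 1397 and 2224 CPM without Msi2, a sum carried by S100a8, S100a9 and Ngp. Of the 8, Mmp8 and Cxcr2 had lower means without Msi2, at 3.32 against 11.7 CPM and at 2.58 against 7.99 CPM. The part of these cell markers in the differences given here was not tested.

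The promoters of the mitotic kinesins carried a shared short sequence. Late cell cycle genes are known for the cell cycle homology region (CHR), with the letters TTTGAA, and for the CCAAT box bound by NF-Y. Promoter windows of 300 bases, from 250 before to 50 after the RefSeq start site on GRCm38.p6, were at hand for 11 of the 12 tested mitotic kinesins, with Kif20a unmatched. On either strand, 10 of the 11 held TTTGAA, all but Kif18a, or 90.9%. Over 27025 genes with a window of this length, 20.2% held it. CCAAT was present in 7 of the 11, or 63.6%, against 41.1% of all genes, and both motifs were present together in 63.6% against 7.97%. In these 11 genes no copy of one motif overlapped a copy of the other. Among 24 matched genes of the 27 spindle partners described further on, 66.7% held TTTGAA. For transport kinesins no share is given, since 11 of 17 had a window, too few to stand for the class. A match is a string of letters, and whether a factor binds there was not measured. The 6 stretches printed here run from 70 bases before the start site to 15 bases from it on, and were chosen because they hold the hexamer near the start site of a gene described further on. Capitals mark TTTGAA and CCAAT, or TTCAAA and ATTGG where the motif lies on the other strand.
Kif11, chr19:37376312-37376396, plus strand: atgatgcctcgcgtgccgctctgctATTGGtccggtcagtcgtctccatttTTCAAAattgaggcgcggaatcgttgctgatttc
Kif15, chr9:122951011-122951095, plus strand: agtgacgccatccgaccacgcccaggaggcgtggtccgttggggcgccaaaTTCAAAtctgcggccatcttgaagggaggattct
Kif22, chr7:127042406-127042490, minus strand: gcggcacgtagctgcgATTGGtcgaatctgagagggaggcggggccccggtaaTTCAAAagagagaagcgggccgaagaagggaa
Kif18b, chr11:102925110-102925194, minus strand: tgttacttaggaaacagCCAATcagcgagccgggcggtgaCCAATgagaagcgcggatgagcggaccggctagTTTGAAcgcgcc
Kif23, chr9:61946785-61946869, minus strand: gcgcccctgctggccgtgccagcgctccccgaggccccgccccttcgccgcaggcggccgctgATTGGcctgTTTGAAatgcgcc
Kifc1, chr17:33890619-33890703, minus strand: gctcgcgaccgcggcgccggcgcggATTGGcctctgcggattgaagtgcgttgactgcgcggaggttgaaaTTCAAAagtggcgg

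The hexamer lay close to the start site in most of these windows. Counted from the first transcribed base as 0, it began at -19 in Kif11 and Kif15 and at -17 in Kif22. In Kifc1, Kif23 and Kif18b it began at 1, 2 and 3. Kif20b held it at 7 and 13, and Kif4 at 19. Kif2c and Kif14 held it farther upstream, at -103 and -228. A further copy lay at -234 in Kif15 and at -215 in Kif22.

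**Figure D1:**
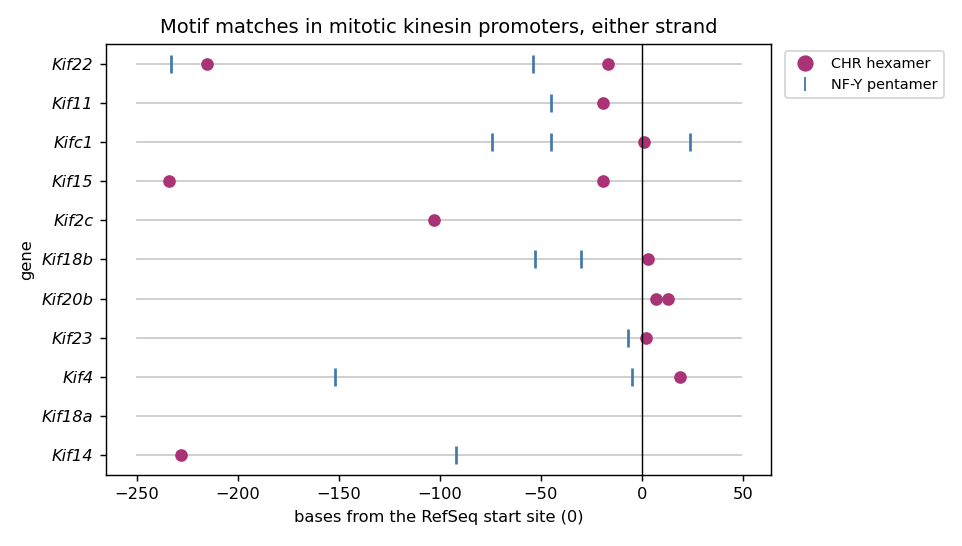
Positions of the CHR hexamer (dots) and the NF-Y pentamer (ticks), on either strand, in the promoter windows of the 11 matched mitotic kinesin genes, with distance in bases from the RefSeq start site at 0 and each mark at the motif's first base. In 8 of the 11 genes a dot lies within 20 bases of the start site.

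Mitotic kinesins stood modestly higher in Msi2 -/- cells, by an amount close to the gap between the 2 controls. Of 12 tested members, the log2 fold change (Msi2 -/- minus control) was above 0 for 11 and below 0 for 1. Over all 13215 tested genes 49.7% lay above 0 and 50.3% below. The class median was 0.23 and that of all genes 0.00. Fold changes ran from -0.10 for Kif15 to 0.61 for Kif23. By edgeR's quasi-likelihood test 0 kinesins of any class passed an adjusted p of 0.05, where over all genes 0% passed higher and 0.00757% lower. The deleted gene itself did not pass edgeR's adjusted test (Msi2 log2 fold change -8.07, SE 0.485, adjusted p = 0.122), so 0 calls at this number of libraries says little about kinesins. EdgeR's unadjusted p was under 0.05 for 4 mitotic kinesins higher and 0 lower, beside 6.69% of all genes higher and 6.17% lower. DESeq2, with adjusted p under 0.05, called 2 of the 12 higher (Kif23 and Kifc1) and 0 lower, beside 3.1% and 2.71% of its 13350 genes. The median of the class against the control mean was 0.12 in control 1, -0.13 in control 2, 0.22 in Msi2 -/- replicate 1 and 0.23 in replicate 2. Control 1 stood above control 2 for 11 of the 12 genes, beside 51.3% of all tested genes, and the median gap between the controls was 0.24 on the log2 scale. The class median was 0.38 without control 1 and 0.12 without control 2. Genes of 1 class share these 4 libraries and are not independent of each other. In a bulk sample, more cells expressing a gene and more RNA per cell cannot be told apart.

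**Figure D2:**
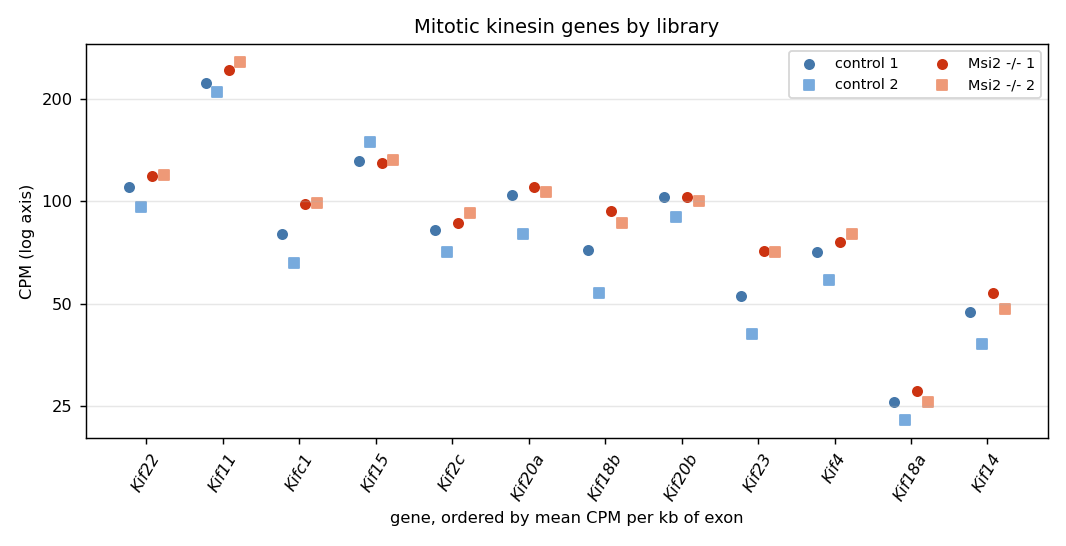
CPM on a log axis in each of the 4 libraries (blue, controls; red, Msi2 -/-) for the 12 tested mitotic kinesins, ordered by mean CPM per kb of exon. Control 2 is the lowest library for 11 of the 12 genes, and for Kif23 both Msi2 -/- libraries lie near 71 CPM against 52.6 and 40.6 in the controls.

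Kif23 had the largest difference among mitotic kinesins. Its protein forms centralspindlin with Racgap1 and bundles microtubules at the midzone, where the cleavage furrow is set. Kif23 stood at 52.6 and 40.6 CPM in control 1 and control 2 and at 71.5 and 71.1 CPM in Msi2 -/- replicates 1 and 2. Both Msi2 -/- libraries lay above both controls and nearly coincided, while the controls were apart. This was a log2 fold change of 0.61 (SE 0.145; adjusted p = 0.315 by edgeR and 0.0109 by DESeq2). DESeq2's call was lost with any library left out except control 1, at adjusted p = 0.285 without control 2, 0.0895 without Msi2 -/- replicate 1 and 0.062 without replicate 2.

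Kifc1 encodes a motor that walks toward microtubule minus ends, focuses spindle poles and gathers extra centrosomes. It read 80.1 and 66.0 CPM with Msi2 intact and 98.4 and 98.9 CPM without it, without overlap. This was a log2 fold change of 0.43 (SE 0.113; adjusted p = 0.333 by edgeR and 0.0393 by DESeq2). DESeq2's call was lost without control 2 (adjusted p = 0.738), without Msi2 -/- replicate 1 (0.211) and without replicate 2 (0.192). Kifc1 has a near copy, Kifc5b, whose counts are uncertain in the same way. Of the 50-base stretches of Kifc1 transcripts in GENCODE M21, 43.1% also occur in Kifc5b, and no such stretch is shared between any other pair of the 41 genes. Summed over both genes, the level was 111 and 95.3 CPM for the controls, against 133 and 131 CPM without Msi2, so the sum also separated the groups. Kifc5b, counted among the other kinesins, held 27.8% and 30.8% of the summed counts in the controls and 25.9% and 24.4% in the Msi2 -/- libraries.

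Kif18b is known to work with Kif2c in shortening astral microtubules. Kif18b, a plus-end motor, read 71.8 and 53.8 CPM with Msi2 intact and 93.5 and 86.3 CPM without it. The groups did not overlap, and the log2 fold change was 0.52 (SE 0.159; adjusted p = 0.352 by edgeR and 0.0704 by DESeq2). The log2 fold change was 0.74 without control 1 and 0.33 without control 2. Kif2c, a kinesin that takes microtubule ends apart and corrects faulty attachments at kinetochores, read 82.1 and 71.0 CPM with Msi2 intact and 86.2 and 92.5 CPM without it. Its log2 fold change was 0.22 (SE 0.099), with edgeR adjusted p = 0.43. Whether the 2 genes' responses differ was not tested. Kif18a, which dampens chromosome movements at the metaphase plate, had overlapping groups with 25.8 and 22.7 CPM for the controls against 27.6 and 25.7 CPM without Msi2.

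Kif11 and Kif15 both drive spindle poles apart, Kif11 as the main motor of spindle assembly and Kif15 as its known backup, and they lay on opposite sides of 0. Kif11 read 223 and 209 CPM with Msi2 intact and 244 and 257 CPM without it, without overlap (log2 fold change 0.21, SE 0.073, edgeR unadjusted p = 0.0399 and adjusted p = 0.372, DESeq2 adjusted p = 0.148). Kif15 read 131 and 149 CPM with Msi2 intact and 129 and 133 CPM without it, and the groups overlapped. It was the mitotic kinesin with a log2 fold change below 0, at -0.10 (SE 0.089), and it was at 0.00 without control 2. It was also the mitotic kinesin for which control 2 exceeded control 1. Whether Kif11 and Kif15 differ in their response was not tested.

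The chromokinesins bind chromatin and push chromosome arms outward. Kif22 read 110 and 96.1 CPM with Msi2 intact and 119 and 120 CPM without it (log2 fold change 0.21, SE 0.091, edgeR adjusted p = 0.422). Kif4, which also works at the midzone with Prc1, read 70.9 and 58.5 CPM with Msi2 intact and 75.9 and 80.2 CPM without it (log2 fold change 0.27, SE 0.116, edgeR adjusted p = 0.422). Neither gene's groups overlapped, and for both the Msi2 -/- libraries were closer to each other than the controls were. Kif4 is on the X chromosome, so the difference in Xist goes with it, and its part was not tested. Exons of Kif4 overlap those of Pdzd11 on the opposite strand over 753 bases in GENCODE M21. Reads there may have been lost or shared, as the counting mode is not given. Among the other tested kinesins, longer overlaps of this kind were in Kif3c (2617 bases), Kif20a (1271), Kif7 (877) and Kif2a (765).

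Apart from Kif23 and Kif4, the kinesins of cytokinesis had log2 fold changes of 0.26 or less. Kif20a, which brings Aurora B kinase to the midzone, read 105 and 79.9 CPM with Msi2 intact and 110 and 106 CPM without it (log2 fold change 0.23, SE 0.147, edgeR adjusted p = 0.552). Its log2 fold change was 0.44 without control 1 and 0.05 without control 2. Kif20a shares 1271 bases of exon with Cdc23 on the opposite strand. Kif14, which recruits citron kinase to the midbody, read 47.1 and 38.0 CPM with Msi2 intact and 53.8 and 48.2 CPM without it. Kif20b, a midbody kinesin, read 103 and 90.05 CPM with Msi2 intact and 103 and 100 CPM without it, and its groups overlapped. Over all 12 mitotic genes both Msi2 -/- libraries lay above both controls for 9, below for 0 and overlapped with them for 3, beside 23.7% of all tested genes above and 24.6% below. Kif2b, a further microtubule-end kinesin of the spindle, had 0 counts in every library and was not tested.

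**Figure D3:**
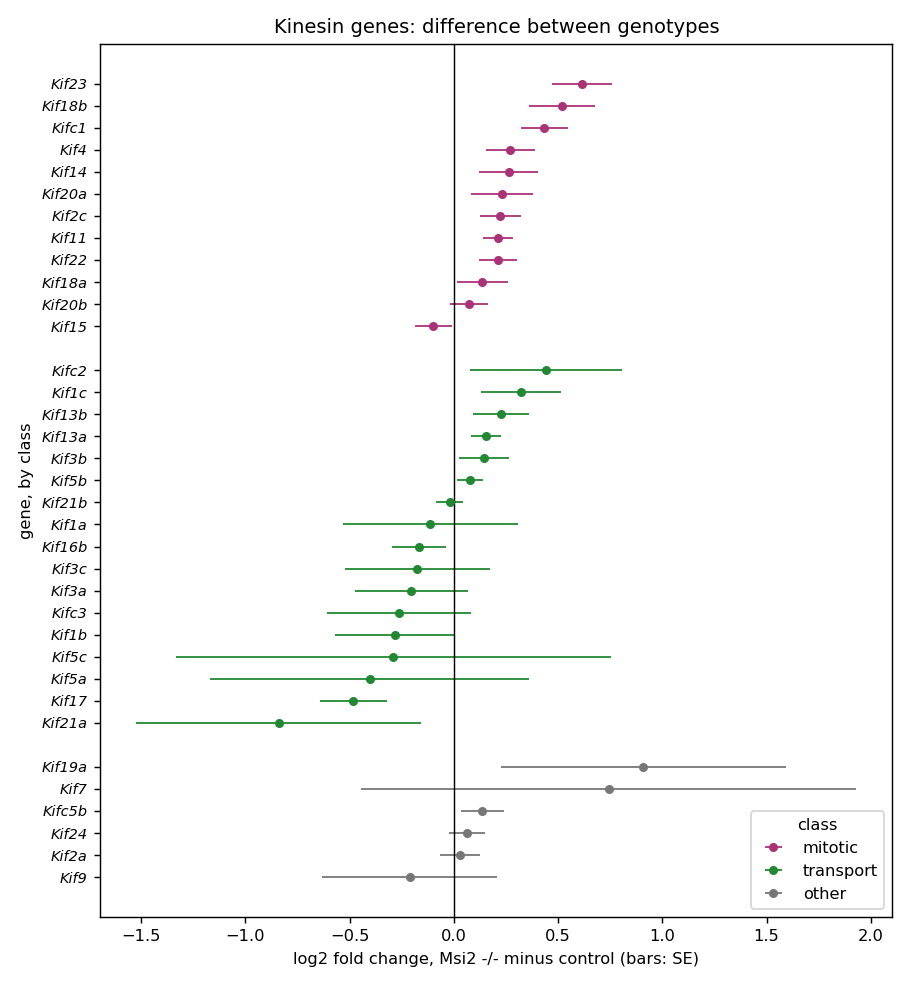
Log2 fold change of each of the 35 tested kinesin genes, Msi2 -/- minus control, with bars for the standard error from edgeR's fit, grouped by class. Mitotic genes run from -0.10 to 0.61, transport genes from -0.84 to 0.44 and the others from -0.21 to 0.91.

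Transport kinesins showed no common direction. All 17 were tested, and 6 lay above 0 and 11 below. Their median log2 fold change was -0.17. The sign of the median rested on single libraries, at 0.09 without control 1, -0.07 without control 2, 0.01 without Msi2 -/- replicate 1 and 0.02 without replicate 2. Measured per library against the control mean, the class median was 0.02 and 0.00 in the 2 Msi2 -/- libraries and 0.01 and -0.01 in controls 1 and 2. EdgeR's unadjusted p was under 0.05 for 0 higher and 1 lower, beside 6.69% and 6.17% of all genes. DESeq2 called 0 of the 17 in either direction at an adjusted p under 0.05, beside 3.1% and 2.71%. Both Msi2 -/- libraries lay above both controls for 5 genes and below for 3, beside 23.7% and 24.6% of all genes. The mitotic median exceeded the transport median by 0.40 on the log2 scale, and by between 0.19 and 0.29 with any 1 library left out. This gap was not tested, since it is a difference between lists chosen with earlier results known.

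Kif17 was the transport kinesin of smallest p. Its protein is a kinesin-2 motor known from dendrites and cilia. Kif17 read 13.5 and 15.5 CPM with Msi2 intact and 9.90 and 10.9 CPM without it, below both controls (log2 fold change -0.48, SE 0.162, edgeR unadjusted p = 0.0376 and adjusted p = 0.367, DESeq2 adjusted p = 0.126). The other kinesin-2 genes had overlapping groups. Kif3b, a heavy chain of the heterotrimeric motor, read 42.0 and 39.97 CPM with Msi2 intact and 41.5 and 49.1 CPM without it. Kif3a, its partner chain, read 16.9 and 13.6 CPM with Msi2 intact and 16.1 and 10.4 CPM without it. For both, 1 Msi2 -/- library lay among the controls, and Kif3c, the alternative chain, was at 4.61 CPM or below in each library, with overlap.

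Kif5b, the heavy chain of conventional kinesin found in most cells, was the most abundant transport kinesin. It read 208 and 206 CPM with Msi2 intact and 215 and 221 CPM without it. The groups did not overlap, but the difference was small, with a log2 fold change of 0.08 (SE 0.062, edgeR adjusted p = 0.635). Its neuronal relatives Kif5a and Kif5c were at or under 0.343 CPM in all libraries, and Kif1a, another motor of neurons, at or under 1.02 CPM. The neuron genes Snap25 and Syt1 had 0 counts in every library. Kif21b, a kinesin-4 of immune cells and neurons that restrains microtubule growth, read 123 and 128 CPM with Msi2 intact and 122 and 125 CPM without it, with overlap. Its close relative Kif21a, named here for its spread, stood at 11.8 and 11.1 CPM in the controls, 10.3 CPM in Msi2 -/- replicate 1 and 2.55 CPM in replicate 2. The log2 fold change of Kif21a, -0.84 (SE 0.682, edgeR adjusted p = 0.636), rested on that single library, at -2.16 without replicate 1 and -0.16 without replicate 2.

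Kinesin-3 motors carry endosomes and other vesicles. Kif13a, a carrier of recycling endosomes, read 66.3 and 63.9 CPM with Msi2 intact and 70.5 and 74.6 CPM without it (log2 fold change 0.16, SE 0.072, edgeR adjusted p = 0.442). Kif16b, which moves early endosomes, lay the other way, with 39.2 and 41.1 CPM for the controls against 32.3 and 39.15 CPM without Msi2 (log2 fold change -0.17, SE 0.13). For neither did the groups overlap, although Msi2 -/- replicate 2 and control 1 were almost equal for Kif16b. Kif1c stood at 41.5 and 41.2 CPM in the controls, 60.9 CPM in Msi2 -/- replicate 1 and 42.6 CPM in replicate 2, so its log2 fold change of 0.32 (SE 0.192) was 0.05 without replicate 1. Kif1b, a carrier of mitochondria and synaptic vesicle precursors, read 57.6 and 38.9 CPM with Msi2 intact and 31.7 and 47.7 CPM without it. Kifc3, a minus-end motor of epithelial and Golgi traffic, read 26.3 and 13.7 CPM with Msi2 intact and 17.8 and 15.6 CPM without it. In Kif1b and Kifc3 the controls differed from each other by more than the groups did. The remaining transport kinesins, Kif13b and Kifc2, had log2 fold changes of 0.23 and 0.44, with standard errors of 0.135 and 0.365.

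**Figure D4:**
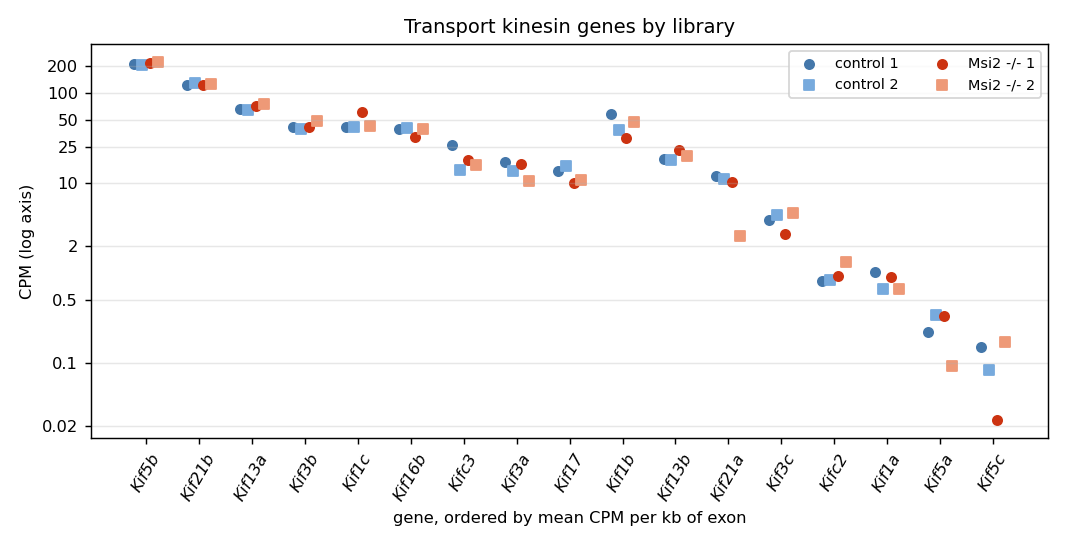
CPM on a log axis in each of the 4 libraries (blue, controls; red, Msi2 -/-) for the 17 transport kinesins, ordered by mean CPM per kb of exon. Most genes have their 4 libraries close together, and Kif21a has 1 Msi2 -/- library at 2.55 CPM below 3 libraries between 10.3 and 11.8 CPM.

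Other kinesins included the genes with the widest spread between libraries. Kif19a, which sets the length of cilia, stood at 5.23 and 4.40 CPM in the controls, 14.4 CPM in Msi2 -/- replicate 1 and 3.69 CPM in replicate 2. Kif7, a ciliary regulator of Hedgehog signalling, stood at 1.17 and 3.18 CPM in the controls, 6.65 CPM in replicate 1 and 0.624 CPM in replicate 2. For both genes replicate 1 was the highest library and replicate 2 the lowest. Their log2 fold changes of 0.91 (SE 0.682) and 0.74 (SE 1.19) turned to -0.37 and -1.79 without replicate 1. Kif2a, which takes microtubule ends apart in spindles and in resting cells, read 62.9 and 65.6 CPM with Msi2 intact and 61.2 and 70.2 CPM without it. Kif24, a centriolar relative of Kif2a that limits cilium formation, read 37.5 and 36.9 CPM with Msi2 intact and 38.5 and 39.2 CPM without it, a log2 fold change of 0.06 (SE 0.087). Kif9, a ciliary kinesin, was between 1.69 and 3.20 CPM with overlapping groups. Kif12, Kif26a and Kif6 had 0 counts in all libraries, and Kif26b and Kif27 were at or under 0.143 CPM, so these 5 genes were not tested.

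Levels were compared between genes per kb of exon, using exon lengths of GENCODE M21, which may differ from those of the annotation behind the counts. Kif22 and Kif11 led, at 52.6 and 48.4 CPM per kb over the 4 libraries, followed by Kifc1 at 36.4, Kif5b at 35.2, Kif15 at 27.9, Kif2c at 26.04, Kif20a at 25.1 and Kif18b at 23.0 CPM per kb. Kif22 ranged from 45.4 to 56.7 CPM per kb and Kif11 from 43.5 to 53.4, so their order lies within the spread between libraries. Kifc1 ranged from 28.0 to 42.0 CPM per kb, enclosing Kif5b at 34.1 to 36.6, and the ranges of Kif15, Kif2c, Kif20a and Kif18b overlapped. Among transport kinesins Kif5b stood apart, since Kif21b came next at 13.7 CPM per kb with a highest library of 14.03. Kif18a and Kif14 were the lowest tested mitotic kinesins, at 7.54 and 5.23 CPM per kb. Summed over the class, mitotic kinesins made up 1102 and 975 CPM for the controls, against 1212 and 1219 CPM without Msi2. Transport kinesins summed to 670.0 and 637 CPM for the controls, against 656 and 665 CPM without Msi2, with overlap.

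Transcripts of most partners of the mitotic kinesins lay above 0 as well. Of 27 spindle and midzone partner genes, all tested, 23 lay above 0 and 4 below, beside 49.7% and 50.3% of all genes, and the median log2 fold change was 0.17. Control 1 stood above control 2 for 24 of the 27, or 88.9%, with a median gap of 0.12, so the partners share the difference between controls seen for the mitotic kinesins. EdgeR called 0 at an adjusted p of 0.05, and its unadjusted p was under 0.05 for 7 higher and 1 lower, beside 6.69% and 6.17% of all genes. DESeq2 called 4 higher and 0 lower, beside 3.1% and 2.71%. Those 4 were Nusap1, Racgap1, Mki67 and Prc1, and edgeR's 4 smallest p-values in the list were theirs. Prc1, which crosslinks midzone microtubules and works with Kif4, read 111 and 80.9 CPM with Msi2 intact and 151 and 156 CPM without it (log2 fold change 0.68, SE 0.166, adjusted p = 0.32 by edgeR and 0.00685 by DESeq2). Racgap1, the partner of Kif23 in centralspindlin, read 141 and 138 CPM with Msi2 intact and 178 and 174 CPM without it (log2 fold change 0.34, SE 0.062, adjusted p = 0.293 by edgeR and 0.00038 by DESeq2). For Racgap1 the controls were close to each other, unlike for Kif23 and Prc1. Its DESeq2 call was lost with any 1 library left out, with adjusted p from 0.114 to 0.43, whereas those of Nusap1 and Prc1 held in all 4 cases, with adjusted p up to 0.0489 and 0.0473. Mki67 kept DESeq2's call without Msi2 -/- replicate 1 (adjusted p = 0.00515) and lost it in the other 3 cases. Bub1b, a checkpoint kinase gene, was the lower member in that count, named after its value was seen (log2 fold change -0.31, SE 0.086, edgeR adjusted p = 0.335). Cenpe encodes kinesin-7, a kinetochore motor whose symbol falls outside the rule. Cenpe read 125 and 102 CPM with Msi2 intact and 121 and 132 CPM without it, with overlap.

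Adaptors and the opposing motor, dynein, were mixed. Of 15 tested transport adaptor genes 10 lay above 0 and 5 below, with a median of 0.11, and of 17 tested dynein and dynactin genes 12 lay above and 5 below, with a median of 0.08. Over all tested genes 49.7% lay above 0 and 50.3% below. EdgeR and DESeq2 called 0 of the adaptor, dynein and dynactin genes at an adjusted p of 0.05. Of all genes edgeR called 0% higher and 0.00757% lower, and DESeq2 3.1% and 2.71%, so few calls could arise in lists this short. At an unadjusted p under 0.05 edgeR had 2 adaptors higher and 1 lower, and 2 dynein or dynactin genes higher and 0 lower, beside 6.69% of all genes higher and 6.17% lower. Klc3, a kinesin light chain, had low levels of 1.60 and 2.37 CPM for the controls, against 5.09 and 3.81 CPM without Msi2 (log2 fold change 1.16, SE 0.34, edgeR adjusted p = 0.343). Spag9, a scaffold that links kinase signalling to kinesin-1, had 85.8 and 92.3 CPM for the controls, against 71.8 and 76.1 CPM without Msi2 (log2 fold change -0.27, SE 0.075, edgeR adjusted p = 0.336). Plekhm2, which couples lysosomes to kinesin-1, and Trak2, which couples mitochondria to it, stood at log2 fold changes of 0.24 (SE 0.078) and 0.49 (SE 0.204). The dynein genes of smallest p were Dynlrb1 and Pafah1b1, at 0.25 (SE 0.084) and 0.17 (SE 0.061), followed by Dync1li1 and Dctn1, at -0.32 (SE 0.128) and -0.22 (SE 0.09).

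**Figure D5:**
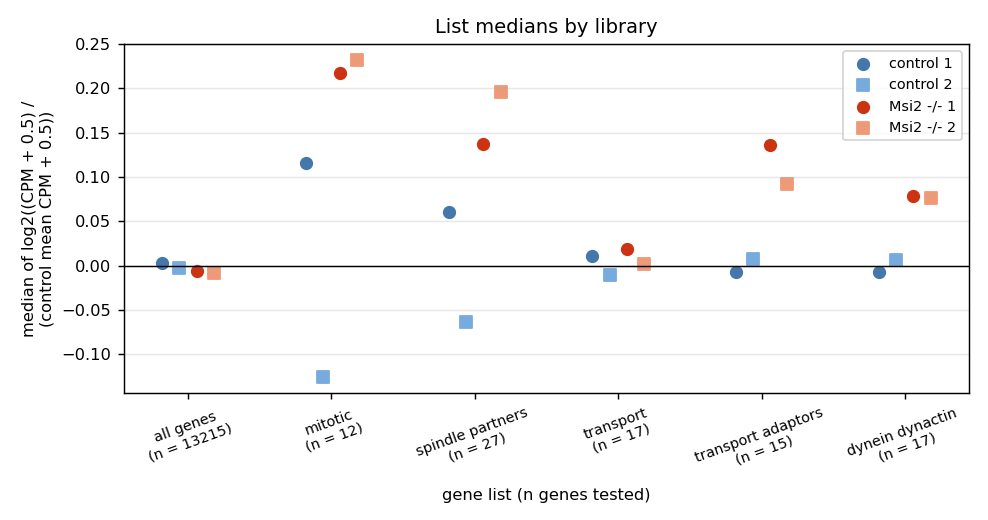
Median over the tested genes of each list of the log2 ratio of a library's CPM to the control mean CPM, both with 0.5 CPM added, for the 4 libraries (blue, controls; red, Msi2 -/-). Mitotic kinesins lie at 0.22 and 0.23 in the Msi2 -/- libraries and at 0.12 and -0.13 in the controls, and transport kinesins lie within 0.02 of 0.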

How the data were processed

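RNA of c-Kit high leukemic cells was sequenced in 4 libraries. Per the submitters' processing notes, Trimmomatic, STAR, HTSeq and DESeq and the build mm9 were used, without versions. Their annotation, strand setting and overlap mode are not given in the sources used. The authors deposited unnormalized counts of reads, 1 value per gene symbol. 5 closing rows that name no gene took 19.1% to 20.1% of each library and were left out.

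In R 4.3.3, edgeR 4.0.16 was fitted to all genes (filterByExpr with minimum count 10 and total 15, TMM scaling, group as the only term, quasi-likelihood test, two-sided, Benjamini-Hochberg over 13215 genes). CPM use TMM-scaled totals. The standard error comes from the F statistic. DESeq2 1.42.0 and limma 3.58.1 (voom) were alternatives. The steps were tested on simulated data with log2 fold changes of at least 1 in size. Those are larger than any seen for the mitotic kinesins, so recovery of small differences was not tested. Replicates of a group differed by far more than sampling noise (chi-square per gene 59.2 and 144). The gaps between replicates of each group correlated at 0.01 across genes. With a single gap per group, this cannot show whether same-numbered samples were paired. Named genes were Msi2, kinesins with an unadjusted edgeR p or an adjusted DESeq2 p under 0.05, the 6 most abundant per length in the mitotic and transport classes, members with a log2 fold change of at least 1 in size and a mean of at least 1 CPM (none met this), and up to 4 partners of smallest p per list. Others were added after their values were seen. The members and lists were chosen with earlier results of these data known. Lists are described by counts and medians. Promoter sequences are RefSeq's, on GRCm38.p6, and their coordinates are not those of the counts' build.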

Additional observations from a re-analysis of the deposited data

How the results depend on the processing

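With 2 libraries a group, single libraries set much of what was seen. With the replicate block the mitotic median was 0.23 and the transport median -0.17. At an unadjusted p under 0.05, 0 kinesins were lower in that fit, beside 726 of 13215 genes. That fit called 0 of 13215 genes in either direction, so its count of 0 kinesins says nothing about pairing. Kinesins called higher were 0 by edgeR and 2 by DESeq2. Partner genes called higher were 0 by edgeR, 4 by DESeq2 and 2 by edgeR's likelihood ratio test. Over all 13215 genes the likelihood ratio test called 120 higher and 192 lower. It also had 0 kinesins lower at an unadjusted p under 0.05, beside 709 of 13215 genes. The transport median was -0.19 with upper-quartile scaling and -0.11 without the kinesin-2 genes. With 1 library left out, the mitotic median ran from 0.12 to 0.38, the transport median from -0.069 to 0.085 and their difference from 0.19 to 0.29. Kinesins at an unadjusted p under 0.05 ran from 3 to 8 higher, the 8 without control 1, and from 0 to 1 lower. Counts from DESeq2 with 1 library left out were chosen after seeing the data and ran from 0 to 3 kinesins higher, from 0 to 1 lower, and from 2 to 5 partners higher. Without control 1 DESeq2 also called the kinesin Kif18b. Without Msi2 -/- replicate 2 it called Kif19a and Kif1c, and without replicate 1 it called Kif21a. None of these was called with all libraries. A group left with 1 library is assumed to vary like the other. Of 48 genes named, 14 changed sign with a library left out and 0 under any other alternative, and the cause was not tested. Their log2 fold changes ran from -0.19 to 0.0020 for Kif15, from -0.046 to 0.012 for Kif21b, from -0.020 to 0.17 for Kif20b, from -0.61 to 0.030 for Kif1b, from -0.65 to 0.29 for Kifc3, and from -0.55 to 0.080 for Kif3a. Others ran from -0.37 to 1.58 for Kif19a, from -1.79 to 1.63 for Kif7, from -0.071 to 0.14 for Kif2a, from -0.60 to 0.32 for Kif9, from -0.61 to 0.17 for Kif3c, and from -0.39 to 0.24 for Kif1a. The last ran from -1.61 to 0.23 for Kif5a and from -2.26 to 0.55 for Kif5c. In all 13 alternatives 11 mitotic kinesins lay above 0 and 1 below. Depth limits the genes under 1 CPM.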
